A study of Dugesia japonica with 19 samples.

Results

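Of the 5847 m6A sites listed in any tissue library of the series, 378 sites (6.46%) were listed in at least 1 head library and at least 1 tail library and in no trunk library. A site is a position on 1 strand of a contig of the transcript assembly. The 378 were chosen by listing alone, by taking the sites of the 6 head tables that were also in any of the 6 tail tables and removing every site of the 6 trunk tables. They lay on 320 contigs out of 2882. Membership rests on the listings themselves, so which tissues list a site is a description here and not a result. The label holds for the listings, but an unlisted site has no value in trunk: it may have had no reads, too few reads, or a level under the lower limit of the lists.

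The animal is the planarian Dugesia japonica, a freshwater flatworm. Libraries were made from head, trunk and tail pieces on days 0, 1, 3, 5, 7 and 10, with 1 library for each tissue and day (18 in all), and each came from the pooled pieces of 10 to 20 animals, whose age, strain and genotype the labels do not give. Poly(A) RNA of every tissue library was treated with MazF, an endoribonuclease that cleaves the motif ACA but spares it when its first adenosine is methylated. A single control library from intact animals holds RNA copied by in vitro transcription (IVT), which carries no modification; its column headers also bear the letters fto, and whether these name a further treatment is not settled. The m6A level used throughout is the share of uncut reads at the site in a library minus the share of uncut reads in that control, so it cannot exceed 1 minus the control share, referred to as the ceiling. Tail and trunk libraries, like head, exist once per day, so days stand in for replicates, and how the tissues were prepared cannot be told apart from the tissues themselves. Fewer transcripts and fewer cells that make them also cannot be told apart in such pooled pieces.

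N6-methyladenosine is the most common internal modification of messenger RNA in animals. It is placed by a methyltransferase complex built around METTL3 and METTL14 and is read by proteins of the YTH family, which in other animals affect how long a transcript lasts and how well it is translated. Planarians rebuild any body part from dividing stem cells called neoblasts, and the cut pieces must re-establish head and tail identity along the body axis. The contigs have assembly identifiers only, so no gene and no sequence is given for any site.

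The lists admitted a site on reads of the library or of the control. No listed level was under 0.1, and the larger of the library's and the control's uncut read counts was at least 11 in all 23432 listings of the series. The control had 11 or more uncut reads at 353 of the 378 sites (93.4%), and there 1 uncut read in a library was enough for a listing. At the other 25 sites head and tail each had to bring the reads, and the deepest head library and the deepest tail library had at least 11 reads at each of them. Of these 25 sites, 12 lay on contigs with a trunk-listed site.

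Reads at the 378 sites were few, and more came from head. The head libraries held 12894 reads at them, with a median of 5 reads per site over all head libraries and a highest of 721. The tail libraries held 3910 reads, with a median of 2 and a highest of 887. A single read in all stood behind 89 sites in head (23.5%) and 128 sites in tail (33.9%). At least 10 reads in some library were reached by 102 sites in head and 59 in tail, and by 25 sites in both. These were the same 25 sites at which the control had fewer than 11 uncut reads, so none of the 353 sites with more uncut control reads was covered by 10 reads in both tissues. At 81 sites there was exactly 1 head listing and 1 tail listing, on a median of 3 reads together, and 29 of these rested on 1 read in each tissue. Over all listed sites outside TRINITY_DN678_c0_g2_i4, the contig with the most reads in the series, head libraries held 10645 to 239974 reads, tail libraries 4447 to 127245 and trunk libraries 14434 to 114546, with medians of 154676.5, 21459.5 and 49644. Total sequencing depth is unknown, since unlisted positions are not in the tables.

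Head listings of the 378 sites were spread over the days, whereas tail listings were concentrated on day 7. Head listed 169, 205, 142, 200, 189 and 72 of them on days 0, 1, 3, 5, 7 and 10. Tail listed 126, 35, 65, 86, 285 and 87. Tail day 7 alone thus held 285 of the 378 (75.4%), and it was the only tail listing of 150 sites (39.7%). The same library had the most reads outside the leading contig among tail libraries. The part that this depth has in the count was not tested, but without the tail day 7 library 228 sites would meet the rule. As a share of each library's list, the 378 sites took 7.46% to 11.4% in head and 7.83% to 12% in tail, so that the libraries differed far less by share than by count.

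**Figure D1:**
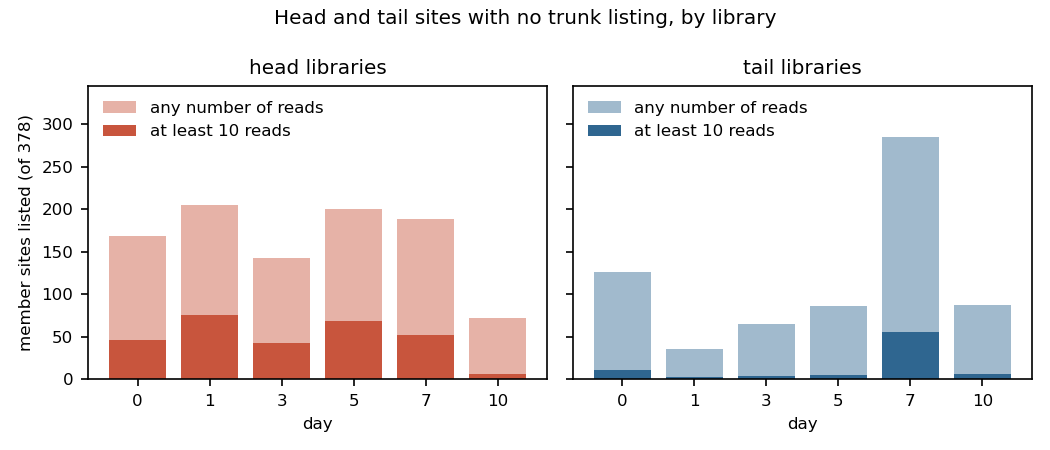
Number of the 378 head and tail sites listed in each library by day, head on the left and tail on the right. Pale bars count every listing and dark bars those with at least 10 reads; tail day 7 stands at 285 listings, while head days 0 to 7 lie between 142 and 205.

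Few of the sites recurred in both tissues. In head 151, 68, 47, 41, 41 and 30 sites were listed in 1, 2, 3, 4, 5 and 6 libraries, and in tail 226, 74, 37, 14, 19 and 8. None was in all 12 libraries, 3 were in 10, and 82 were in at least 2 of each tissue. Among the 30 sites in every head library, 28 were in only 1 or 2 tail libraries. Listing on the same day in both tissues occurred at 213 sites, and at 165 sites the head days and the tail days did not coincide. On day 0, 55 sites were in both tissues, 114 in head only, 71 in tail only and 138 in neither. A shared day that came only after day 0, at sites in neither tissue on day 0, was found at 54 sites.

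Beside similar groups of sites in the series, the 378 sites had lower coverage, a description with no test. Their listings had a median of 2 reads, against 5 for the 890 sites of all 3 tissues, 4 for the 421 sites of head and trunk without tail, and 3 for the 655 sites of trunk and tail without head. A site was listed by a median of 4 libraries, against 9, 5 and 5. The median control share was 0.733 at the 378 sites, against 0.75, 0.778 and 0.647, on a median of 27 control reads against 30, 21 and 43. The median level of their listings was 0.222, against 0.24, 0.210 and 0.321. The minus strand held 56.9% of the sites, against 56.4% over the series, and their contigs had a median length of 1694.5 bases. Along the contig, split into 3 equal stretches, 138 sites lay in the first, 152 in the middle and 88 in the last.

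The sites just outside the rule, listed in head, in tail and in exactly 1 trunk library, numbered 230. Their trunk listing rested on 1 read at 157 of them (68.3%) and on at least 10 reads at 6. Their head reads had a median of 5 and their tail reads a median of 3, against 5 and 2 inside the rule. Their median levels were 0.211 in head, 0.238 in tail and 0.235 in trunk, against 0.222 in head and 0.267 in tail inside it. The trunk listings fell on day 10 for 89 of the 230 and on day 0 for 8. A single trunk read thus kept most of these sites out of the set.

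Levels at the 378 sites were modest and mostly at the ceiling. The mean level of a site over its head libraries had a median of 0.222, with quartiles of 0.154 and 0.349 and a range of 0.1 to 0.879. Over its tail libraries the median was 0.267, with quartiles of 0.156 and 0.457 and a range of 0.103 to 0.951. Levels of 0.5 or more were held by 48 sites in head (12.7%) and 83 in tail (22.0%). No cut read was seen at 287 sites in head (75.9%) and 358 in tail (94.7%). At 273 sites (72.2%) no library of either tissue had a cut read, so head and tail had equal means, within 1e-09. Of the other 105, the head mean was lower at 89 and higher at 16, with a median difference of -0.125 and a range of -0.840 to 0.167. The 91 sites with a cut read in head had a median of 30 head reads and 3 tail reads. A listing on 1 read had to be uncut, and the part of unequal reads in this split was not tested.

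**Figure D2:**
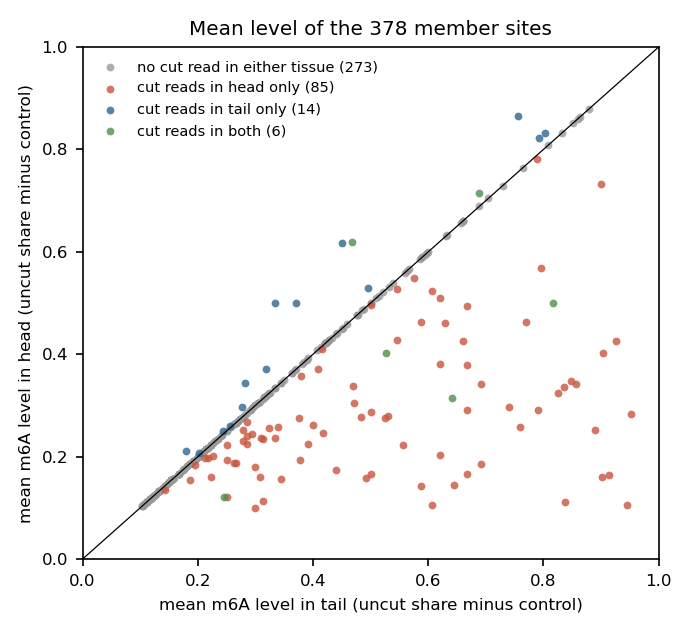
Mean m6A level of each of the 378 sites over its tail libraries (horizontal axis) and over its head libraries (vertical axis), coloured by which tissue had cut reads, with the line of equal levels. The 273 sites without a cut read lie on the line, and the 85 sites with cut reads in head alone lie below it.

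The pooled reads showed where the cut reads were. Over all 378 sites 88.6% of the head reads were uncut (11429 of 12894), against 98.1% of the tail reads (3835 of 3910), and 49.6% of the 17040 control reads. By library, the head share was 88.5%, 88.8%, 88.4%, 88.3%, 88.5% and 95% on days 0, 1, 3, 5, 7 and 10, a mean of 89.6% ± 2.66 (SD, n = 6 days). The tail share was 98.2%, 98.9%, 96.6%, 96.9%, 98.4% and 98.3%, a mean of 97.9% ± 0.907 (SD, n = 6 days). The head and tail libraries did not overlap. The other sites of the same libraries, outside the leading contig, stood at 81.8% ± 2.42 in head and 97.4% ± 0.813 in tail, so the order of the tissues was not particular to the 378 sites. In head 1465 cut reads fell on 91 sites, and the 10 with the most held 71.9% of them; without these 10 the head share was 96.0%. In tail 75 cut reads fell on 20 sites, and without the 10 with the most the share was 99.6%.

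**Figure D3:**
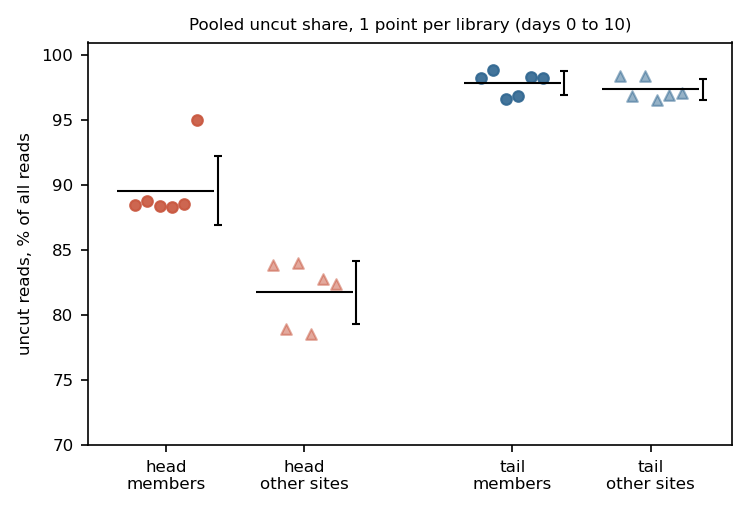
Share of uncut reads pooled over sites in each library, with 1 point per day, for the 378 sites (circles) and for all other sites outside the contig with the most reads (triangles), head left of tail. Horizontal lines are means and bars are SD over 6 days; the head points of the 378 sites lie between 88.3% and 95%, below the tail points at 96.6% to 98.9%.

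Head and tail levels were first compared, with day as a block, where each tissue had listings on 4 days or more. Over the series 176 sites could be tested, and 19 were lower in head (10.8%) and 0 higher (0%) by limma at an adjusted p under 0.05. Without adjustment these numbers were 40 and 1, and the quasi-binomial model called 1 higher. The direction depended on the scale: levels centred on the sites common to all libraries gave 18 lower and 123 higher, and logit shares gave 23 lower and 21 higher. Of the 378 sites, 9 could be tested, and 0 were called in either direction by limma, adjusted or not, and 0 by the quasi-binomial model or with logit shares. With centred levels all 9 passed as higher in head, by 0.0768 to 0.0897. With the day block, a day listed in 1 tissue alone adds nothing to the difference, and at 8 of the 9 the fitted difference was 0. The other was position 315 of TRINITY_DN14000_c1_g1_i5, with a difference of -0.00735 (SE 0.0035, limma adjusted p = 0.425). Levels at the ceiling in both tissues cannot differ, so these counts speak of few sites.

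Position 315 of TRINITY_DN14000_c1_g1_i5, minus strand (contig length 596 bases), was the best covered of the 9. The control had 5 uncut of 11 reads. In head 93 of 96, 99 of 103, 80 of 81, 102 of 103 and 82 of 82 reads were uncut on days 0, 1, 3, 5 and 7, giving levels of 0.514, 0.507, 0.533, 0.536 and 0.545. In tail all of 12, 15, 54 and 13 reads were uncut on days 3, 5, 7 and 10, for a level of 0.545 each time. Head day 7 equalled the tail libraries and the other 4 head libraries were slightly below. No site on this contig was listed in trunk.

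Position 242 of TRINITY_DN130500_c1_g1_i2, minus strand (contig length 847 bases), had the highest level of the 9. The control cut most reads here, with 13 of 77 uncut. In head the 1, 4, 4 and 1 reads of days 1, 3, 5 and 7 were all uncut, for a level of 0.831. In tail 5 of 6 reads were uncut on day 0 (level 0.665), and all of 1, 2, 9, 29 and 3 reads on days 1, 3, 5, 7 and 10 (level 0.831). Every listed library except tail day 0, which has no head listing beside it, was at the ceiling. With 4 reads, all uncut, the Wilson 95% interval of the uncut share runs from 0.510 to 1, and with 1 read from 0.207 to 1; these intervals cover counting error only.

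TRINITY_DN1930_c0_g2_i6, a contig of 3828 bases, carried a pair of recurrent sites at positions 926 and 972, both on the minus strand. At position 926 all of 2, 1, 2 and 3 head reads on days 1, 3, 5 and 7 were uncut, and all of 5, 1, 1, 23 and 8 tail reads on days 0, 3, 5, 7 and 10, for a level of 0.597 in each. At position 972 the 1 to 5 head reads and 1 to 19 tail reads of the same days were uncut too, for a level of 0.128, since the control left 41 of 47 reads whole. The pair thus differed in level only through the control. The contig had 4 trunk-listed sites, the nearest 130 bases from position 926. At position 225 of this contig all 6 trunk libraries were listed, with 233 reads and a mean level of 0.276, against 0.907 in 5 tail libraries with 101 reads and no head listing.

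The other recurrent sites were at the ceiling in every listed library. Position 177 of TRINITY_DN49383_c0_g1_i1 had 2, 9, 2, 7 and 4 head reads and 2, 3, 3, 17 and 3 tail reads over 10 libraries, all uncut, for a level of 0.167. Position 169 of TRINITY_DN6727_c1_g1_i1 had 1 to 3 head reads and 1 to 23 tail reads, for a level of 0.305, and a trunk-listed site lay 20 bases away with 1 trunk read. Position 222 of TRINITY_DN2384_c0_g1_i2 and position 2697 of TRINITY_DN576_c0_g1_i5 stood at 0.188, and position 323 of TRINITY_DN38240_c0_g1_i2 at 0.192. These sites were listed in 9 or 10 libraries with no more than 9 reads in any head library. TRINITY_DN38240_c0_g1_i2 was read in trunk as well, with 516 reads at position 584 over all 6 trunk libraries.

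Sites named here from the 30 listed in every head library were thin in tail. Position 146 of TRINITY_DN5402_c0_g1_i1, minus strand (contig length 872 bases), had 163 of 164, 142 of 143, 109 of 109, 154 of 155, 110 of 112 and 36 of 36 head reads uncut. Its head level was 0.409 ± 0.007 (SD, n = 6 days), against 0.416 in tail on 6, 1 and 2 reads, so the difference was within the spread over head days. Position 1533 of TRINITY_DN4125_c0_g1_i6 had 25 to 197 head reads and a head level of 0.496 ± 0.007 (SD, n = 6 days), against 0.5 in tail on 11 reads each on days 7 and 10. Its control share rests on 4 reads, 2 of them uncut, so a tail library of 11 reads could be listed only with all 11 uncut. Position 139 of TRINITY_DN1454_c3_g1_i15 had 6 to 37 head reads and 1 tail read on each of days 0, 5 and 7, all uncut, for a level of 0.185.

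**Figure D4:**
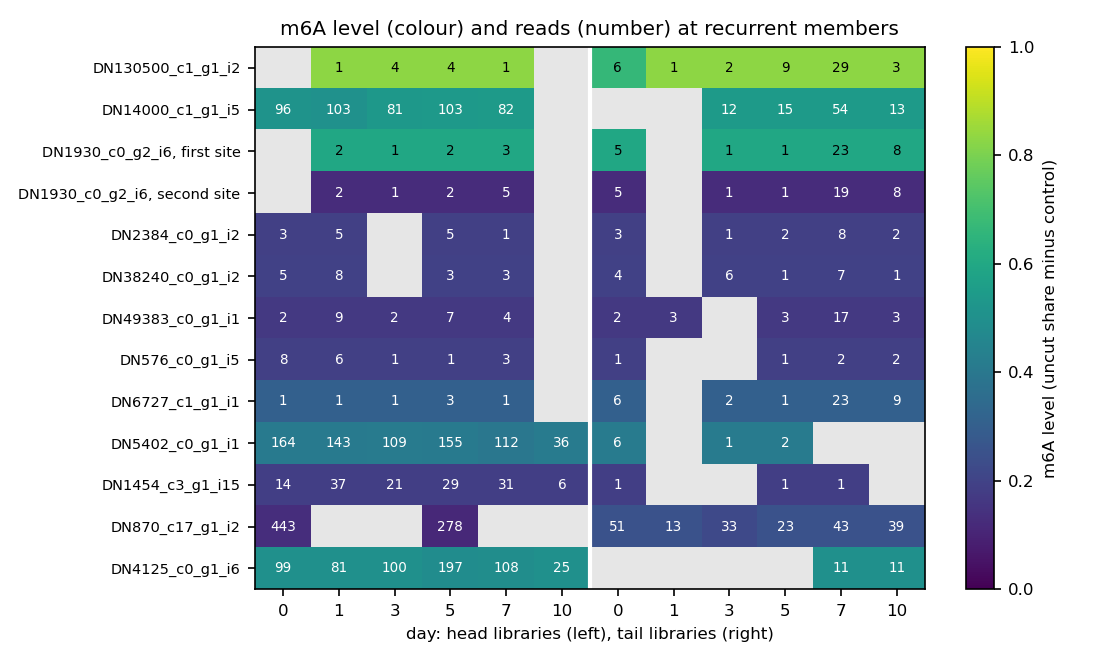
Level (colour) and reads (number in the cell) of 13 recurrent or well-covered sites in the 6 head libraries (left) and the 6 tail libraries (right) by day, with grey for no listing. Most sites keep a single colour across their listed libraries because no read was cut, while TRINITY_DN870_c17_g1_i2 is darker in its pair of head libraries, at 0.130 and 0.113, than in tail, at 0.220 to 0.25.

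Among the 25 sites with at least 10 reads in some library of each tissue, the highest mean levels were at 5 sites. Position 895 of TRINITY_DN26073_c1_g1_i5 had 16 of 17 and 14 of 14 uncut reads in head on days 1 and 7 (levels 0.685 and 0.744), against 17 of 18 in tail on day 7 (0.688). Position 3772 of TRINITY_DN2852_c1_g1_i5 was whole in all of 11 to 41 reads of 5 head libraries and in 18 tail reads on day 7, for a level of 0.6. Position 575 of TRINITY_DN6893_c0_g1_i2 had 14 of 19 and 11 of 12 uncut head reads on days 5 and 7 (levels 0.404 and 0.583), against 11 of 11 in tail on day 0 (0.667). Both head libraries of TRINITY_DN6893_c0_g1_i2 were lower than the tail library, but on different days and against a control of 6 reads. The control had 2 uncut reads there, so a tail library of 11 reads could be listed only with all 11 uncut. Its tail value was thus fixed at the ceiling by the listing. Position 1300 of TRINITY_DN2806_c0_g1_i3 stood at 0.5 in 5 head libraries of 15 to 46 reads and in tail on day 7 with 16 reads, against a control of 2 reads. The fifth was position 315 of TRINITY_DN14000_c1_g1_i5, given above.

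Reads of the head and tail library of the same day were then set against each other with Fisher's exact test. This compares pairs of libraries and not conditions, and reads are not independent molecules. Over the series 95 of 1761 site and day pairs were called lower in head (5.39%) and 8 higher (0.454%). At the 378 sites 287 pairs at 213 sites could be tested, and 4 were called lower and 0 higher (7 and 0 at an unadjusted p under 0.05). All 4 were on day 7, and without the deep tail library of that day 0 of 146 pairs were called (2 at an unadjusted p under 0.05). With at least 10 reads in both libraries 370 pairs of the series remained, and 103 were called lower and 8 higher. At the 378 sites 19 pairs remained, and 4 were called lower and 0 higher. All 19 lay among the 25 sites with fewer than 11 uncut control reads. Both libraries of each pair could thus be listed only on at least 11 uncut reads. A library with few more reads than that could not show a low share, and the 4 calls carry that limit. Of these 4, 3 were on day 7 and the other was a pair of day 0, at position 53 of TRINITY_DN870_c17_g1_i2. In the 287 pairs the head level was equal to the tail level in 226 (78.7%), lower in 54 (18.8%) and higher in 7 (2.44%), against 61.1%, 35.5% and 3.39% of 1474 pairs at other sites. These shares were not matched for reads. Listings on 1 read, which had to be uncut, made up 35.2% at the 378 sites, against 24.7% over the series.

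Among the pairs of the 378 sites, with no read minimum, the lowest p was at position 621 of TRINITY_DN1586_c8_g1_i2, minus strand (contig length 960 bases). The control had 13 of 78 uncut reads there. In head 1 of 1 read was uncut on day 3 (level 0.833) and 2 of 6 on day 7 (level 0.167). In tail 53 of 55, 20 of 20, 29 of 30, 181 of 183, 355 of 358 and 239 of 241 reads were uncut on days 0 to 10, with levels of 0.797 to 0.833 and a mean of 0.817 ± 0.015 (SD, n = 6 days). On day 7 the uncut share was 0.333 in head (Wilson 95% interval 0.097 to 0.700) against 0.992 in tail (0.976 to 0.997; Fisher's exact test, adjusted p = 1.98e-05), a pair that has too few head reads for the minimum of 10. The head level of day 7 lay far below every tail library, and the single head read of day 3 was at the ceiling. Its tail sum of 887 reads was the highest of the 378 sites, while head held 7 reads.

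The other 3 called sites were deep in head and listed in tail on day 7 alone. Position 232 of TRINITY_DN838_c1_g2_i1, of 1480 bases, had 14 of 48, 22 of 78, 31 of 69 and 19 of 63 uncut head reads on days 0, 1, 5 and 7, levels of 0.243, 0.233, 0.4 and 0.253. All 12 tail reads were uncut, a level of 0.951 (Fisher's exact test on day 7, adjusted p = 0.00013), and the control had 2 uncut of 41 reads. With so few uncut control reads, tail could be listed only on at least 11 uncut reads. On 12 reads its share was thus bound to be high, and the p carries that limit. The 4 head libraries lay well below the tail library.

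Position 483 of TRINITY_DN1333_c0_g1_i2 had 47 of 82 and 22 of 53 uncut head reads on days 0 and 7 (levels 0.265 and 0.107), against 13 of 13 in tail (0.692; Fisher's exact test on day 7, adjusted p = 0.00175). Position 976 of TRINITY_DN8131_c0_g1_i5 had 13 of 31, 13 of 32, 19 of 29 and 11 of 24 uncut head reads on days 0, 3, 5 and 7 (levels 0.276, 0.263, 0.512 and 0.315), against 16 of 16 in tail (0.857; adjusted p = 0.00623). At both, no head library reached the tail value. Their controls had 13 and 7 reads, so the ceilings are loosely fixed, though the uncut shares compared by the test do not use the control. With 4 and 1 uncut control reads, tail could be listed only on at least 11 uncut of its 13 and 16 reads. The tail shares at both thus could not be low, and the p-values carry that limit. None of these 3 contigs had a trunk-listed site.

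Position 53 of TRINITY_DN870_c17_g1_i2, plus strand (contig length 339 bases), had the largest difference of means among the 3 sites with at least 10 reads in 2 or more libraries of each tissue. In head 390 of 443 and 240 of 278 reads were uncut on days 0 and 5, levels of 0.130 and 0.113. In tail 51 of 51, 13 of 13, 32 of 33, 23 of 23, 43 of 43 and 39 of 39 were uncut, levels of 0.220 on day 3 and 0.25 on the other days. Both head libraries lay below all 6 tail libraries, and the mean difference was -0.123. With 3 uncut control reads, a library was listed only on at least 11 uncut reads and a level of at least 0.1. Lower levels thus could not appear in either tissue. The head mean covers days 0 and 5 alone, at levels near that lower limit. The pair of day 0 was not called over all pairs (Fisher's exact test, adjusted p = 0.0571), but it was among pairs with at least 10 reads in both libraries (adjusted p = 0.0129). With sites listed on at least 2 days in each tissue, 516 sites of the series were fitted and 10 were called lower in head (1.94%). Of 82 fitted here, 59 had a difference of 0, 20 were lower, 3 higher and 0 called (2 at an unadjusted p under 0.05, where the series had 53 lower, 10.3%). This site was one of those 2, with a fitted difference of -0.128 (SE 0.0083, limma adjusted p = 0.389). The control had 4 reads here, which sets no firm ceiling. Other sites in the fit on at least 2 days could share fewer than 2 days between head and tail. At those the fit had no spread of its own, so its p does not measure the spread between libraries. With no shared day the difference set different days against each other.

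Change over days within a tissue was not detected at these sites, but most pairs had fewer than 10 reads in a library. In head, 17 of 5647 site and day pairs of the series were lower than on day 0 (0.301%) and 28 higher (0.496%) by Fisher's exact test. Of the 378 sites, 146 could be tested in 460 pairs, and 0 were called (1 lower and 4 higher at an unadjusted p under 0.05). In tail 6 of 2983 pairs of the series were lower (0.201%) and 7 higher (0.235%), and of 221 pairs at 91 of these sites 0 were called (0 at an unadjusted p under 0.05). With at least 10 reads in both libraries, 151 of the 460 head pairs and 20 of the 221 tail pairs remained, and 0 were called. A day with a level under 0.1 is not listed, so it could not enter the test. Among the 378 sites, the lowest p in head was at position 448 of TRINITY_DN182492_c0_g1_i1, named after its values were seen. Its head reads were uncut in 37 of 63, 128 of 172, 82 of 101, 99 of 133, 46 of 62 and 2 of 2 cases on days 0 to 10, levels of 0.384, 0.541, 0.608, 0.541, 0.538 and 0.796. Day 0 was the lowest, but day 3 against day 0 was not called (Fisher's exact test, adjusted p = 0.211). Tail held 2 uncut reads on day 7.

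Sites where the control was well cut left room for intermediate levels. The control share was under 0.25 at 29 of the 378 sites, on 28 contigs, with a median of 119 control reads. Their mean level had a median of 0.464 in head (range 0.105 to 0.879) and 0.838 in tail (range 0.755 to 0.951). Cut reads were seen at 19 of them in head and 4 in tail, on a median of 6 head reads and 4 tail reads. Position 980 of TRINITY_DN15544_c0_g1_i1, named after its values were seen, had 11 of 35, 32 of 133, 10 of 38, 18 of 77, 14 of 46 and 1 of 5 uncut head reads, levels of 0.215, 0.142, 0.164, 0.135, 0.205 and 0.101. Both tail reads, on day 7, were uncut, a level of 0.901. A library with 1 or 2 reads at such a site could be listed only if at least 1 read was uncut, so thin tail listings can hold few low levels.

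Several contigs carried more than 1 of the sites. Contigs with 1, 2, 3 and 4 of them numbered 277, 32, 7 and 4, and 101 of the 378 sites shared a contig with another. TRINITY_DN2799_c0_g1_i2 had 4, at positions 180, 335, 404 and 751, with levels of 0.25, 0.764, 0.660 and 0.267 in head on 1 to 3 reads. In tail the level at position 180 was 0.218 on day 7, with 30 of 31 reads uncut, and 0.25 on the other 5 days, and at the other 3 positions it equalled the head level. TRINITY_DN289_c3_g1_i1, of only 563 bases, had 4, at positions 212, 252, 304 and 322, on 1 or 2 head reads in each listing and up to 13 tail reads. TRINITY_DN883_c0_g1_i3 had 4 on the plus strand, listed on 1 read in every head library that held them. None of these 3 contigs had a trunk-listed site.

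TRINITY_DN431_c0_g1_i2, a contig of 2038 bases, was the other one with 4 of the sites, and it had 5 trunk-listed sites with up to 43 reads in a trunk library. Its sites at positions 1273, 1340, 1358 and 1508, all on the plus strand, stood at 0.148, 0.660, 0.586 and 0.130 in head and at the same values in tail, since no read was cut. They rested on 1, 2, 2 and 19 head reads in all, and on 1, 3, 3 and 14 tail reads. The nearest trunk-listed site, at position 1549, lay 41 bases from position 1508 and had 10 trunk reads in 3 libraries, with a mean level of 0.388, against 0.344 in head and 0.844 in tail.

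TRINITY_DN1586_c8_g1_i2 had the most reads of these contigs, 928 over its 3 sites. Besides position 621, position 224 had 1 of 1, 1 of 3, 4 of 9 and 3 of 3 uncut head reads on days 0, 1, 5 and 7, levels of 0.769, 0.103, 0.214 and 0.769. Its tail reads, 2, 1 and 6 on days 0, 5 and 7, were all uncut, a level of 0.769. The 3 head libraries with more than 1 read gave low and high levels, and tail stayed at the ceiling. Position 335 was at 0.2 in both tissues on 1 or 2 reads. TRINITY_DN878_c0_g1_i5 held 155 reads, most of them at position 788, where 24, 54, 13, 29 and 15 head reads and 4 tail reads were all uncut, a level of 0.324.

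Trunk libraries did list other sites on many of these contigs. Of the 378 sites, 177 (46.8%) lay on 148 contigs with at least 1 trunk-listed site, and 201 lay on 172 contigs without one. For comparison, 37.1% of the head and trunk sites without tail lay on contigs listed in tail, and 68.2% of the trunk and tail sites without head lay on contigs listed in head; these shares move with how many sites each tissue lists and were not tested. The 148 contigs carried 379 trunk-listed sites, a median of 2 each and at most 14, on TRINITY_DN2158_c0_g1_i12. Most were thin: the deepest trunk listing on a contig had a median of 4 reads, at least 10 on 51 contigs and at least 100 on 11. A trunk site in all 6 trunk libraries was found on 27 contigs.

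The nearest trunk-listed site was close in many cases. Its distance had a median of 149 bases and a range of 2 to 2412, and it lay within 100 bases of 58 sites and within 200 bases of 117. It was on the same strand for 136 of the 177. At 9 sites a trunk site within 100 bases had at least 10 reads in some trunk library. One was position 1256 of TRINITY_DN4011_c0_g1_i5, on the plus strand, named with the next after their values were seen. In head 4 of 4 reads were uncut on day 0, a level of 0.297. In tail 18 of 19, 4 of 4, 4 of 4 and 154 of 158 were uncut on days 0, 1, 3 and 7, levels of 0.244, 0.297, 0.297 and 0.272. At position 1345, 89 bases away on the same strand, all 6 trunk libraries were listed with 720 reads in all and a mean level of 0.477, so the transcript was read in trunk.

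Position 366 of TRINITY_DN57958_c0_g1_i1, on the minus strand, was whole in 3 head reads on day 7 and in 1, 1, 6, 47 and 5 tail reads, a level of 0.808 in each. At position 465, 99 bases away, trunk had 33 reads over 6 libraries and a mean level of 0.156, equal to head on 75 reads and tail on 53. At position 53 of TRINITY_DN870_c17_g1_i2 the nearest trunk site, position 152 on the opposite strand, had 149 trunk reads over 6 libraries and a level of 0.120 in all 3 tissues. Head held 2647 reads there and tail 429. At these sites of both contigs trunk had reads, and fewer than head and tail. At position 1345 of TRINITY_DN4011_c0_g1_i5 the order was the other way, with 720 trunk reads against 152 in head and 237 in tail. Trunk also had the most listed reads at such neighbours on TRINITY_DN9136_c0_g4_i5, TRINITY_DN2661_c12_g1_i2 and TRINITY_DN130803_c0_g1_i1. The neighbours on TRINITY_DN9136_c0_g4_i5 and TRINITY_DN2661_c12_g1_i2 had no head listing. Trunk had the fewest on TRINITY_DN2158_c0_g1_i12 and TRINITY_DN8755_c0_g1_i2, and lay between head and tail on TRINITY_DN60241_c0_g1_i1. Among the 9 such neighbours trunk was thus the thinnest tissue at some and the deepest at others.

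**Figure D5:**
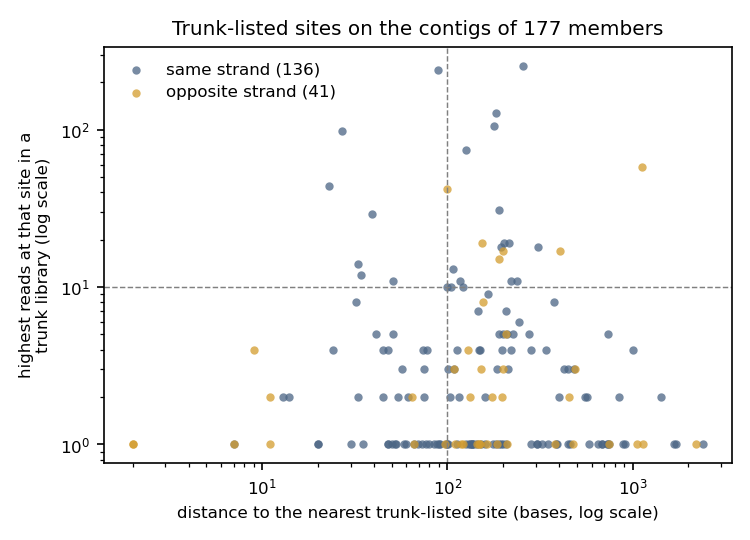
Distance from each of 177 head and tail sites to the nearest trunk-listed site of its contig (horizontal axis, log scale) and the highest reads of that site in any trunk library (vertical axis, log scale), by strand. Dashed lines mark 100 bases and 10 reads; 9 sites have a trunk neighbour within 100 bases with at least 10 reads, and most neighbours rest on few reads.

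Coverage of the contigs could be compared between tissues at their other sites. The 320 contigs held 787 further listed sites, of which 232 were in tail only, 176 in head only, 173 in all 3 tissues, 140 in trunk and tail, 38 in head and trunk and 28 in trunk only. At the 173 sites the total reads over 6 libraries had a median of 16 in head, 8 in tail and 5 in trunk. Over all 890 sites of the 3 tissues these medians were 30.5, 5 and 7. Head had more reads than trunk at 114 of the 173 sites (65.9%) and tail at 84 (48.6%), against 65.6% and 36.2% of the 890. Both head and tail had more reads than trunk at 55 of the 173 (31.8%), against 213 of the 890 (23.9%), a description with no test. Sites on contigs with a trunk listing and sites on contigs without one were alike in head reads (median 5 each) and close in tail reads (3 against 2). Their median levels were 0.235 and 0.214 in head and 0.277 and 0.263 in tail, while the contigs with a trunk listing were longer (median 1840 against 1546 bases) and had more control reads per site (30 against 22).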

How the data were processed

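The authors deposited 1 table per tissue library beside the IVT control, per the file headers with a count of uncut reads and a count of all reads at each site in both. The deposited fraction of uncut reads equalled the ratio of these counts, and the deposited level, also a fraction, equalled library minus control share, within 1e-09. Contig length is another deposited value. The submitters' processing notes list HISAT2 2.4.2, fastp 0.20.0 and FastQC, the sources used here name no counting program, and the listing filter was read from the values. All 18 tables were used, and 0 columns of sample values were left out.

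Sites were matched by contig, position and strand, positions being printed as deposited. Levels were fitted with limma 3.58.1 in R 4.3.3 (lmFit and eBayes) over all sites with listings on 4 or more days of each tissue, with day as a block and Benjamini-Hochberg adjustment over all sites tested; a quasi-binomial model of the read counts was an alternative. Day is the time point in the labels. As a check of pairing, deviations from tissue means at sites in all 12 libraries correlated between head and tail of the same day by -0.145 to 0.211. Fisher's exact tests, two-sided, used scipy 1.17.1, adjusted over all pairs of a comparison. The tests were tried on simulated data first. P-values of limma measure the spread between libraries of pooled animals where head and tail share at least 2 days. Those of Fisher's test measure only the counting of reads in a pair of libraries.

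Sites named in the text are the 9 tested in the head and tail fit, the 10 in the most libraries, the 5 with the highest mean level among those with at least 10 reads in both tissues, those of the 6 contigs with the most of them, the 3 that could be ranked by difference with at least 10 reads in 2 libraries of each tissue, and the 4 called by Fisher's test; others are said to be chosen after their values were seen. The sites and rules were chosen with earlier results of these data known. Gene names and sequences of the contigs are not used here.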

Additional observations from a re-analysis of the deposited data

Results flagged for a closer look

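In all, 28 sets of values over the libraries of a tissue were examined for 1 library far from the rest by Dixon's ratio, and 8 had such a library. Several of the sets describe the same library. Where all other libraries are at the ceiling, 1 cut read is enough to set a library apart. No rate by chance is therefore given. In head, the pooled uncut share at the 378 sites was 95% on day 10, against 88.8% in the nearest library; that library had 260 reads at the sites, the fewest in head. In tail, day 7 stood apart in 4 values: 285 sites listed (nearest 126), 2186 reads at them (nearest 527), 56 sites with at least 10 reads (nearest 11), and 38.2% of listings on 1 read (nearest 48.8%). It also had the most reads at all listed sites of the tail libraries, 657796. At position 242 of TRINITY_DN130500_c1_g1_i2 tail day 0 was at 0.665 and the other 5 at 0.831, by 1 cut read of 6. At position 180 of TRINITY_DN2799_c0_g1_i2 tail day 7 was at 0.218 and the others at 0.25, by 1 cut read of 31. At position 53 of TRINITY_DN870_c17_g1_i2 tail day 3 was at 0.220 and the others at 0.25, by 1 cut read of 33.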

How the results depend on the processing

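The number of sites that meet the rule was 378, and it became 1018 when a trunk listing counted only with at least 10 reads, 608 when 1 trunk library was allowed, 248 with at least 20 control reads, 228 without the tail day 7 library, 82 with at least 2 libraries of each tissue, 27 with at least 3, and 25 when head and tail listings needed 10 reads. Leaving out each day in turn gave 239 (without day 7) to 436 (without day 10). The share of sites on a contig with a trunk listing was 16.4% instead of 46.8% when trunk listings needed 10 reads. With at least 10 reads the median level was 0.2 instead of 0.222 in head and 0.333 instead of 0.267 in tail, over 102 and 59 sites, and without the tail day 7 library it was 0.214 in head.

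Over the whole series the 19 sites lower in head became 32 with no replicate block and 10 with sites on at least 2 days, and 12 (without day 0) to 30 (without day 10) when a day was left out. The 0 higher in head became 21 with logit shares, 123 with levels centred on the common sites and 1 with the quasi-binomial model. Centring shifts every level of a library, sites at the ceiling included, and all 9 tested members of the set then passed as higher in head, with differences of 0.0768 to 0.0897; position 315 of TRINITY_DN14000_c1_g1_i5 reversed to 0.0768, and on the logit scale, without a call, to 0.656. No member was called in any other alternative of this fit, the one with no replicate block included. Without the tail day 7 library, Fisher's test called 60 pairs of the series lower in head instead of 95 and 4 higher instead of 8, and 0 instead of 4 at these sites. With at least 10 reads in both libraries it again called 4 of 19 pairs at these sites, 3 of them the same pairs. All 19 pairs could be listed only on at least 11 uncut reads in each library, so thin libraries could not show low shares there. Over the series Fisher's test with this read minimum called 103 of 370 pairs lower in head. With at least 10 reads in both libraries, 12 tail pairs of the series instead of 7 were higher than on day 0. The other 70 summary values were within 1.5 times the reported ones or within the spread, and 80 site values stayed on their side of the threshold. Alternatives with the tail day 7 library left out, with 1 trunk library allowed and with the quasi-binomial model on 2 days were chosen after seeing the data. Beyond the sites and libraries each alternative admits, the cause of these changes was not tested. Thin reads limit all of these: a site with no cut read on 1 or 2 reads has no measured difference from any other level at or near the ceiling.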

Other observations

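Tail deviated from full protection at few of the sites. Only 20 of the 378 had a cut read in tail, where 46.3% of the listings were on 1 read, which had to be uncut. Position 502 of TRINITY_DN2155_c0_g1_i6, named after its values were seen, is among the 20. Its head reads, 1 in each of 3 libraries, were uncut, a level of 0.865. Its tail reads were uncut in 1 of 1, 2 of 2, 5 of 7, 29 of 32 and 5 of 6 cases on days 0, 1, 5, 7 and 10, levels of 0.865, 0.865, 0.579, 0.771 and 0.698. The head mean was thus higher here, on 3 reads. Another is position 1316 of TRINITY_DN4509_c0_g1_i6, chosen the same way, where all 23 head reads of day 5 were uncut, a level of 0.5, against 27 of 31 tail reads on day 7, a level of 0.371. The libraries are of different days, and no test of the pair was made.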
